A study of Homo sapiens with 7 samples.

Results

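The sites described here are eIF3a read clusters whose deposited interval was shorter than the cluster. They were chosen from the eIF3a read clusters on the primary chromosomes by 2 conditions: the longest listed interval of a cluster was at least 10 nt shorter than the cluster's own coverage profile, and no other cluster of the same strand lay within 1000 nt. Listed length, profile length and distance thus chose the sites and are given only as a description. The rule found 931 sites, which were 26.1% of the 3566 clusters on the primary chromosomes and 39.4% of the 2361 isolated ones (the whole list held 3604 clusters). Of the other isolated clusters, 1225 were listed in full and 205 were short by 2 to 9 nt.

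The list was deposited for 2 replicates of PAR-iCLIP with an antibody against eIF3a in HEK293T cells, an established line derived from human embryonic kidney. The cells were given 4-thiouridine for 8 h and irradiated at 354 nm, and no control immunoprecipitation was used here. Reads of both replicates cannot be told apart in the list, so no value has a replicate error. The 5 m6A samples of the series were not analysed here.

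eIF3 is the largest of the translation initiation factors, and eIF3a is one of its core subunits. The complex binds the small ribosomal subunit, helps it to load onto an mRNA, and stays with it while the untranslated leader is scanned for a start codon. In PAR-iCLIP the protein is joined by ultraviolet light to thiouridine in the RNA, and complementary DNA synthesis often stops where the protein was attached. The first base of a read (the read start) therefore tends to lie next to a point of contact. Genes are not named below, because no hg19 annotation was used here and the list holds no gene names.

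The listed intervals of these sites were short pieces of longer clusters. The cluster length is the sum of the steps of its coverage profile, and the shortfall is that length minus the longest listed interval. The clusters had a median length of 82 nt (quartiles 54 and 124), and the longest listed interval had a median of 34 nt (quartiles 17 and 69). In 471 sites (50.6%) less than 50% of the cluster was listed, and the shortfall had a median of 36 nt with a maximum of 469 nt. In 352 sites (37.8%) the listed interval was shorter than a read of 25 nt, and in 13 it was 1 nt. A site with 1 nt listed on the minus strand at chr19:46191797-46191797 belonged to a cluster of 142 nt with 13 reads, 1 of which started before the listed end. Of the 931 sites, 83 had a shortfall of 100 nt or more. All reads of these clusters could be counted from the profiles: they held 14477 reads, 37.7% of the 38419 on the primary chromosomes, with a median of 10 and a range from 2 to 172. In all but 10 of the 3566 primary clusters no position held more than 1 read start. With 1 start per position and reads of 25 nt, coverage cannot pass 25, and the highest in the list was 24. The read counts are thus counts of distinct start positions in nearly every cluster, and a high score cannot be read as a proportional amount of RNA.

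**Figure D1:**
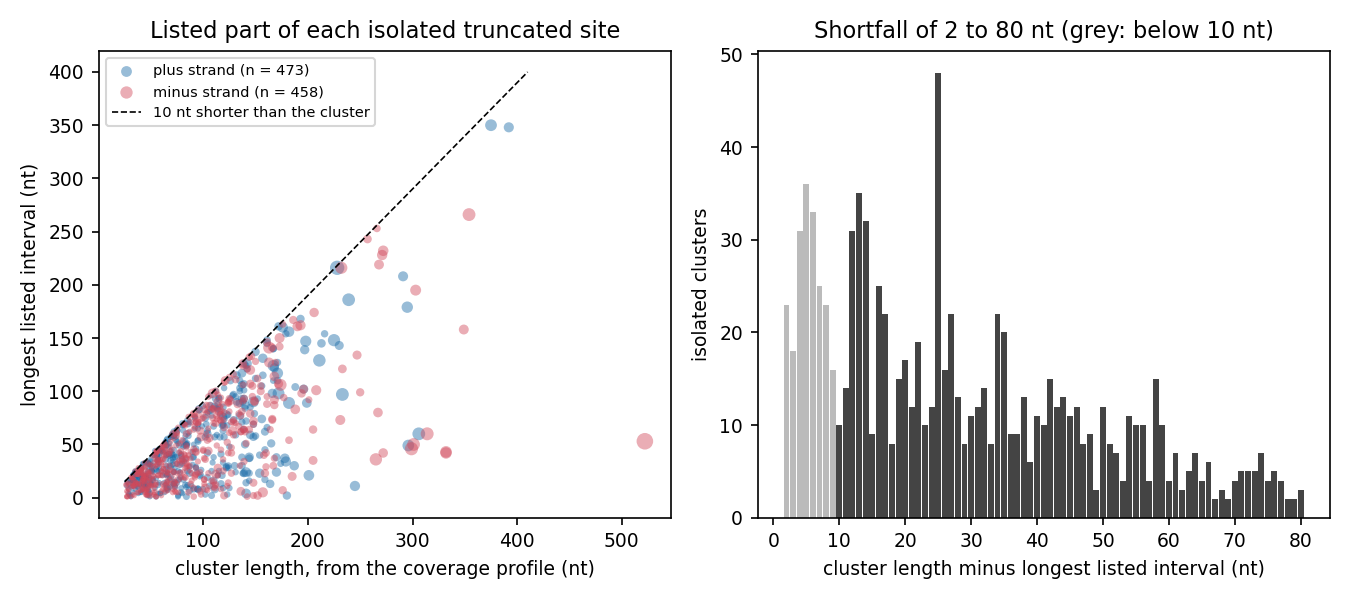
Left, the longest listed interval (nt) against the cluster length (nt) for each of the 931 sites, coloured by strand, with a larger dot for more reads; the dashed line marks a shortfall of 10 nt. Right, the number of isolated clusters at each shortfall from 2 to 80 nt, in grey below 10 nt; the highest bar is at 25 nt, with 48 clusters.

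Shortfalls were not spread evenly. A shortfall of 25 nt, the length of 1 read, was the most frequent and was found in 48 sites, against 12 sites at 24 nt and 16 at 26 nt. A group at 12, 13 and 14 nt held 31, 35 and 32 sites, while 15 nt held 9. A shortfall fixes where the last read of the cluster starts if the missing part is at the 3' end. Under that placement 25 nt puts the last read start at the listed 3' end, and 13 nt puts it 12 nt before.

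The threshold of 10 nt did not fall at a break in the other values. Isolated clusters short by 5 to 9 nt (133) had a median of 7 reads and a median score of 5, where the score is the highest coverage of a cluster in reads. Those short by 10 to 14 nt (122) had medians of 6.5 reads and a score of 5. Just inside, at a shortfall of 10 nt, the highest scores were 9 on the plus strand at chr12:50135333-50135394 with 14 reads, and 6 at chr12:54393929-54393972 (plus strand, 7 reads) and chr7:105752655-105752749 (minus strand, 12 reads). The next were 5 at chr13:96329485-96329509 and chr15:48624365-48624434, both on the plus strand. Just outside, at 9 nt, the highest was 16 on the minus strand at chr5:40835288-40835342 with 18 reads. It was followed by 14 at chr3:40351219-40351432 (plus strand, 53 reads) and at chr6:26235162-26235216 (minus strand, 18 reads), by 11 at chr2:60780588-60780633 and by 10 at chr1:116916020-116916133.

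Read starts gathered at the end of the listed interval. For this the listed interval was placed at the 5' end of its cluster, and each read start was counted from the listed 3' end, with positions before it negative. Position 0 is either the last listed base or the base after it, because intervals listed in full were 1 nt shorter than their profiles. At position 0 there were 292 read starts over the 931 sites, against 108 at 1 nt before and 115 at 1 nt after. The 5 positions on either side held between 71 and 131 starts each, with a mean of 106.5, so position 0 held 2.74 times that mean. A broader rise lay upstream, with 197, 216, 246 and 208 starts at 14, 13, 12 and 11 nt before the end, then 132 at 10 nt before. Positions 20 to 16 nt before the end had a mean of 151.6 starts and positions 9 to 1 nt before had a mean of 124.2.

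Counts on the plus and minus strands were close. The strands are not fully separate, since at least 3 shared profiles were listed on both. Sites that were alike but not identical were not counted. Those at chr12:49580515-49580616 (minus strand) and chr12:49663248-49663349 (plus strand) each had 102 of 196 nt listed and 30 starts before the end. The 473 sites of the plus strand had 141 starts at position 0 and 123 at 12 nt before it. The 458 sites of the minus strand had 151 and 123. On the plus strand the positions within 5 nt of the end held 40 to 66 starts, and on the minus strand 31 to 71. Minus-strand profiles were read from right to left, the direction in which mirrored copies on opposite strands matched. Read the other way, position 0 held 84 starts on that strand.

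The rise at position 0 was larger than the last reads alone give. Of the 292 starts there, 48 were the last start of their cluster and 244 were not. Without the last read of each cluster, position 0 held 2.64 times the mean of its neighbours. Sites short by 11 to 14 nt have their last read at 14 to 11 nt before the end by construction. Without the last reads those positions had a mean of 189 starts, against 151.6 at 20 to 16 nt before. The placement mattered. With the listed interval placed at the 3' end of its cluster, the inner end of the interval held 112 starts against a neighbouring mean of 117, so no rise was seen there. A list that does not show where a single interval sits in its cluster cannot give the placement of each site, and an unknown number of the 931 may be cut at the 5' end.

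**Figure D2:**
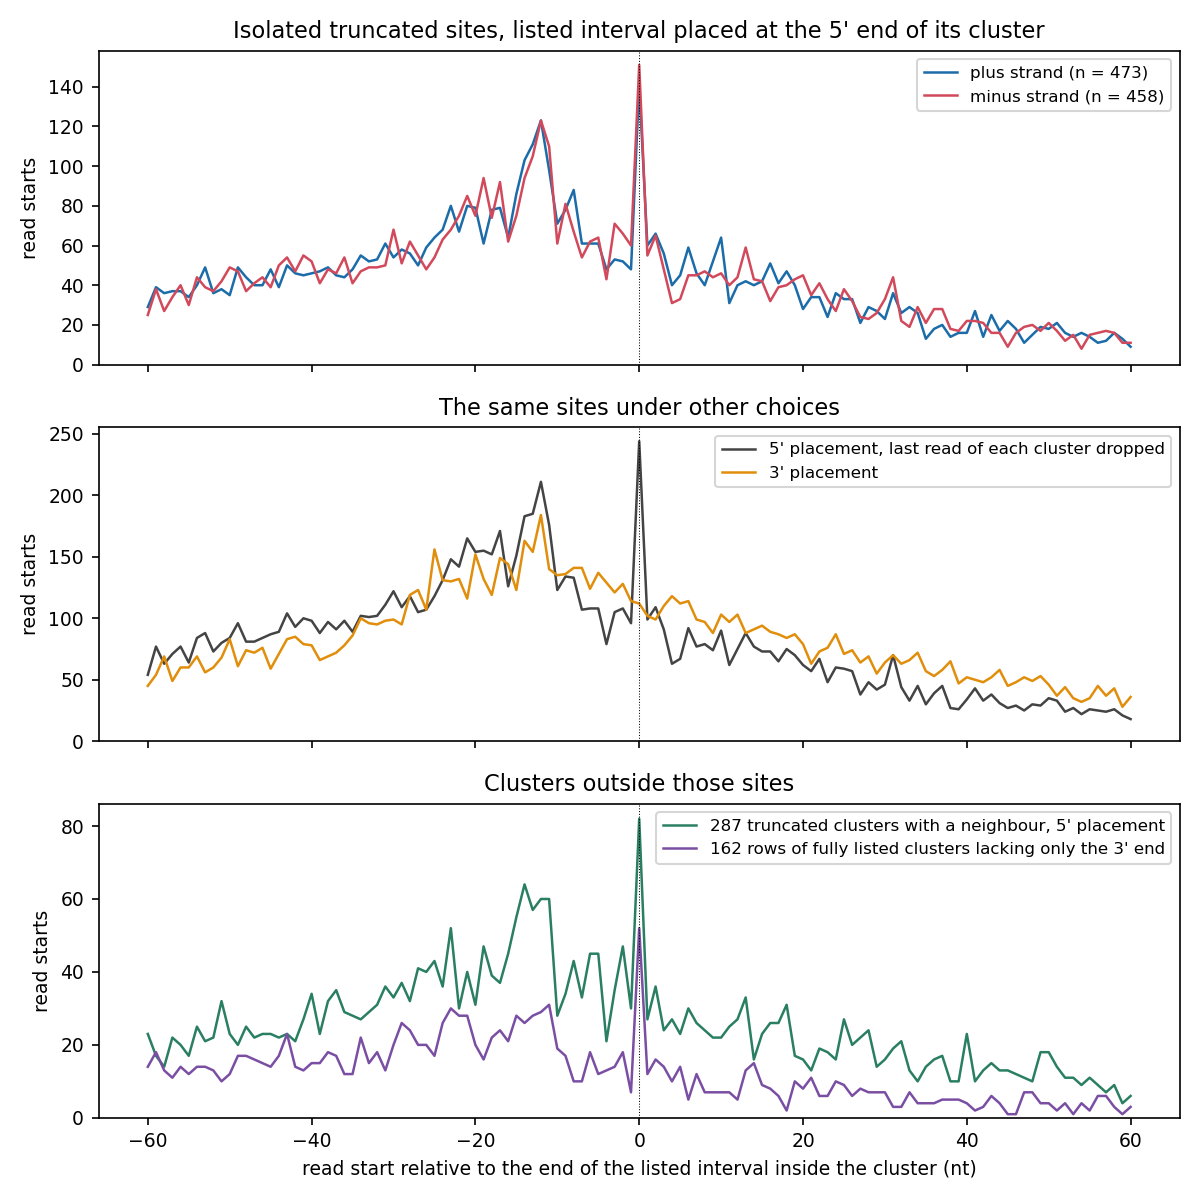
Read starts at each position (nt) relative to the inner end of the listed interval, summed over clusters, with 0 marked by a dotted line. Top, the 473 plus-strand and 458 minus-strand sites with 5' placement both peak at 0 (141 and 151 starts). Middle, the same sites without the last read of each cluster keep the peak (244 starts), and 3' placement has none (112). Bottom, clusters outside the 931 sites also peak at 0 (82 and 52 starts).

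A read start at position 0 needs a shortfall of at least 25 nt, which 660 of the 931 sites had. Of these 660, 292 had a read start exactly there, each with 1 read. This was 44.2% (95% Wilson interval 40.5 to 48.1), against 14.5% (12.1 to 17.4) at 1 nt before and 17.4% (14.7 to 20.5) at 1 nt after. At 12 nt before the end the share was 25.8% (22.6 to 29.2). Intervals cover counting error over sites and not the spread between cultures. The share at position 0 was present at every depth. It was 39.6% in the 91 sites with 2 to 4 reads, 38.6% in the 176 with 5 to 9, 43.0% in the 200 with 10 to 19 and 52.8% in the 193 with 20 or more. At 1 nt before the end the shares of the last 3 classes were 13.6%, 10.0% and 21.8%. At 12 nt before, the shares of all 4 were 13.2%, 21.0%, 29.5% and 32.1%, from the fewest to the most reads.

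**Figure D3:**
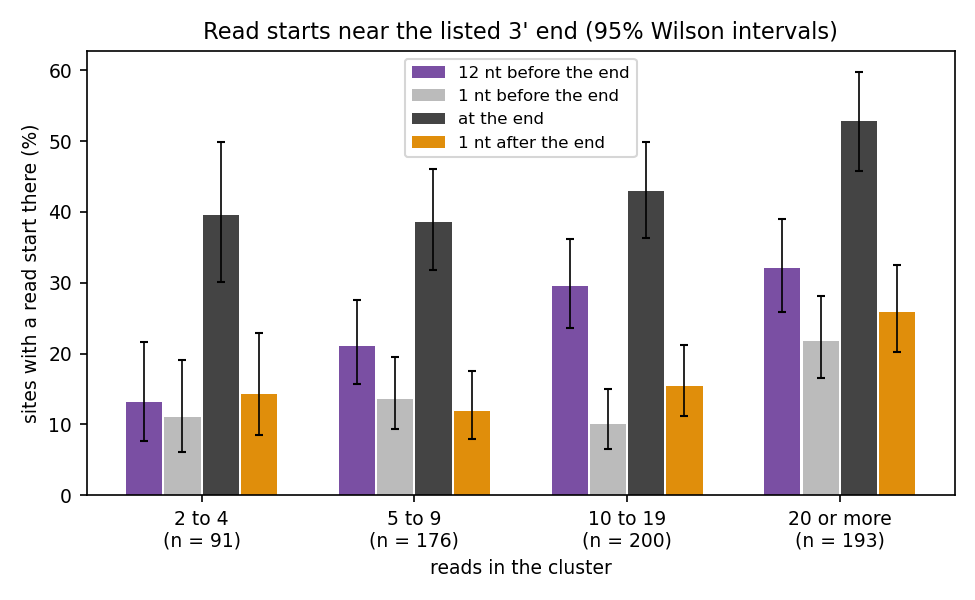
Share of the 660 sites short by 25 nt or more that had a read start at 12 nt before, 1 nt before, at, and 1 nt after the listed 3' end, by number of reads in the cluster; bars start at 0 and lines are 95% Wilson intervals. In each depth class the bar at the end is the highest, from 38.6% to 52.8%.

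Clusters outside the 931 sites, which the rule did not choose, also had more read starts at position 0 than beside it. The 287 truncated clusters that did have a same-strand neighbour held 82 starts at position 0 against a neighbouring mean of 31.5, and a mean of 60.2 starts at 14 to 11 nt before the end against 39.8 at 20 to 16 nt before. For 150 further clusters the placement was known, because they were listed once in full and again in rows that lacked only the 3' end. These 162 rows held 52 starts at position 0, against 7 at 1 nt before and 12 at 1 nt after, which was 4.00 times the neighbouring mean of 13.0. In these rows 14 to 11 nt before the end had a mean of 28.5 starts, against 20.6 at 20 to 16 nt before. These positions held 26, 28, 29 and 31 starts. Positions 24 to 21 nt before held 26, 30, 28 and 28, so counts of that size were not confined to 14 to 11 nt. The 43 rows that lacked only the 5' end held 1 start at their inner end, against a neighbouring mean of 5.30. Fewer rows make that last value coarse.

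Beyond the listed end the read starts fell unevenly over registers of 3 nt, by a small amount. Of the 4017 starts at 1 to 90 nt after the end, 36.0% (34.6 to 37.5) lay at positions 1, 4, 7 and so on, 31.9% at positions that are multiples of 3, and 32.0% at the others. The first share was 36.5% on the plus strand, 35.5% on the minus strand and 36.9% (34.2 to 39.6) in truncated clusters with a neighbour. On the minus strand at 46 to 90 nt after the end the order differed, with 33.7% at positions 1, 4, 7 and so on and 36.8% at positions 2, 5, 8 and so on. Starts became fewer with distance, from 115 at 1 nt after the end to 13 at 80 nt, which by itself raises the share of the first register, and the size of that part was not tested. In the rows of known placement it was 34.0% (29.6 to 38.6) of 427 starts, equal to the share at positions 2, 5, 8 and so on. In the listed part, 90 to 16 nt before the end, the share was 34.1% in the same register, against 32.5% and 33.5% in the others. The register intervals count each start as separate, although many starts share a cluster and some profiles were listed more than once. They may therefore be too narrow. The register was examined after the other positions had been seen.

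Part of the reads lay outside what was listed, as did part of the cluster length. The longest listed intervals made up 44483 of the 89391 nt of these clusters. The rule chose clusters with an unlisted part, so reads and summits outside it are given only as a description. With the 5' placement, 9627 of the 14477 reads (66.5%) started inside the listed part and the rest at or after its end. The first base of the summit, the point of highest coverage, lay inside the listed part in 561 sites (60.3%, 57.1 to 63.4). Measured at the middle of the summit this was 50.8%. With the 3' placement the shares were 38.6% of reads and 37.9% of summits by their first base. By the middle of the summit the 3' placement gave 44.7%. By the mean centre of reads the share was 51.7% with the 5' placement and 47.4% with the 3' placement. The placements thus differed less by these measures. Reads of 25 nt cannot start close to the 3' end of a cluster, and a summit begins at a read start. By construction this favours the 5' placement in the shares of reads and of first summit bases. The size of that part was not tested.

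The highest coverage of the whole list was among these sites. Of the 37 primary clusters that scored 20 or more, 25 (67.6%, 51.5 to 80.4) were isolated and truncated, a class that made up 26.1% of primary clusters. The 26.1% is not matched for length. Among isolated clusters the truncated share was 60.2% from 100 to under 150 nt and 70.1% at 150 nt or more. No test was made, since the score and the rule come from the same profiles. The listed end divided the top sites in different ways, given here with the 5' placement. The site with the top score, 24, on the plus strand at chr22:24236565-24236661, had 63 of its 96 reads starting before the listed end and 33 after it, with its summit 53 nt before. On the minus strand at chr5:180670801-180670906 (score 23), 61 of 80 reads started before the end. At chr11:17099189-17099220, minus strand, also with a score of 23, 14 of 30 reads started before the end, 1 exactly at it and 15 after, and the summit began 12 nt beyond it. At chr3:101405521-101405563 (minus strand, score 22) 25 of 30 reads started before the end and 1 at it, with the summit 2 nt before. At chr9:91926110-91926207 (plus strand, score 21) 60 of 80 reads started before the end and 1 at it, with the summit 8 nt before. At chr15:69745159-69745287 (plus strand, score 16), 62 of 90 reads started before the end, 1 at it and 27 after. Its summit lay 48 nt before the end. These sites thus had summits on both sides of the listed end.

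At 3 other sites few or no reads started beyond the listed end. At chr12:56510386-56510571 (plus strand, score 22), listed in 3 intervals, 91 of 94 reads started before the end of the longest. On the minus strand at chr11:118656961-118657226 (score 16), 92 of 96 reads did. The site with the second highest number of reads, at chr6:31795512-31795727 (plus strand), was short by 12 nt only, and all 124 of its reads started inside the listed part. It lies in the part of the major histocompatibility complex that is known to carry the inducible HSP70 chaperone genes, and its profile appeared at 5 loci of the list, counting alternate versions of chromosome 6.

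The largest shortfalls were in 2 short stretches of the genome. The 5 sites with the largest shortfall, 253 to 469 nt, lay on chromosome 1 between 149814266 and 149858232 and on chromosome 6 between 26056657 and 27114637. The stretch of chromosome 6 is known as the main cluster of replication-dependent histone genes, which are small, have no introns and have short leaders, and that of chromosome 1 as a smaller histone cluster. Which gene a site belongs to was not analysed here. Between 26 and 28 Mb of chromosome 6, 11 of the 26 clusters were isolated and truncated (42.3%, 25.5 to 61.1), an interval that includes the 26.1% of all primary clusters. These 11 sites held 20 to 102 reads (median 55) in clusters of 83 to 332 nt (median 245), of which 11 to 60 nt were listed (median 38). Their reads stand against a median of 10 over all 931 sites, and their listed lengths against a median of 34 nt. Those of the 931 with clusters of 150 nt or more had a median of 37 reads (quartiles 24 and 55).

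In and beside these stretches, most reads of 7 named sites started beyond the listed end, again with the 5' placement. Only 10.2% to 19.6% of each of these clusters was listed. Most starts beyond the end thus follow from the large shortfalls and are given only as a description. At chr1:149814266-149814318, minus strand, 32 reads started before the end, 1 at it and 139 after, the last of them 444 nt beyond. At chr1:149858191-149858232 (minus strand) 19 of 73 reads started before the end, and at chr1:149783879-149783928 (minus strand, score 18) 30 of 94 did. At chr6:26156559-26156618 (plus strand, score 21) 39 of 95 reads started before the end and 56 after. At chr6:26056657-26056699 (minus strand, score 15) it was 24 of 76, and at chr6:27100530-27100575 (minus strand, score 20) 30 of 102. At chr6:27114578-27114637 (minus strand, score 21) it was 38 of 98. These 7 sites each had 2 to 4 read starts at 14 to 11 nt before the end, and the first had 1 at the end while the other 6 had none. Starts were dense over the whole listed parts, with 32 in 53 nt at the first site and 30 in 46 nt at chr6:27100530-27100575. Such counts thus show no excess at those positions by themselves. At chr6:27861203-27861240 (plus strand, score 21), where 23 of 43 reads started before the end, 4 starts lay at those positions and the summit began 12 nt before the end.

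Longer clusters, which can lose more bases, were truncated more often. Among isolated clusters of 26 to 49 nt, 201 of 902 (22.3%, 19.7 to 25.1) were truncated by 10 nt or more. The share was 36.9% at 50 to 74 nt, 50.2% at 75 to 99 nt, 60.2% from 100 to under 150 nt and 70.1% (63.1 to 76.3) at 150 nt or more. The truncated sites were longer than the 1225 isolated clusters listed in full, with a median of 82 nt against 49 nt, and had more reads, with a median of 10 against 5. No test was made of these differences, since the rule used the length of the profile. Within classes of cluster length the ratio of the medians was lower, while in the longest 2 classes the difference was 6 and 7 reads. The medians were 4 and 3 reads at 26 to 49 nt, 6 and 6 at 50 to 74 nt, and 10 and 9 at 75 to 99 nt. From 100 to under 150 nt they were 19 (quartiles 13 and 24) and 13 (10 and 19.5), and at 150 nt or more 37 (24 and 55) and 30 (21 and 37). The quartiles overlapped in each class. Reads per 100 nt followed, with medians of 14.3 and 12.0 from 100 to under 150 nt and 9.68 and 9.52 in the shortest class. Length and reads were not particular to the isolated sites. The 287 truncated clusters with a same-strand neighbour had medians of 79 nt and 10 reads.

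**Figure D4:**
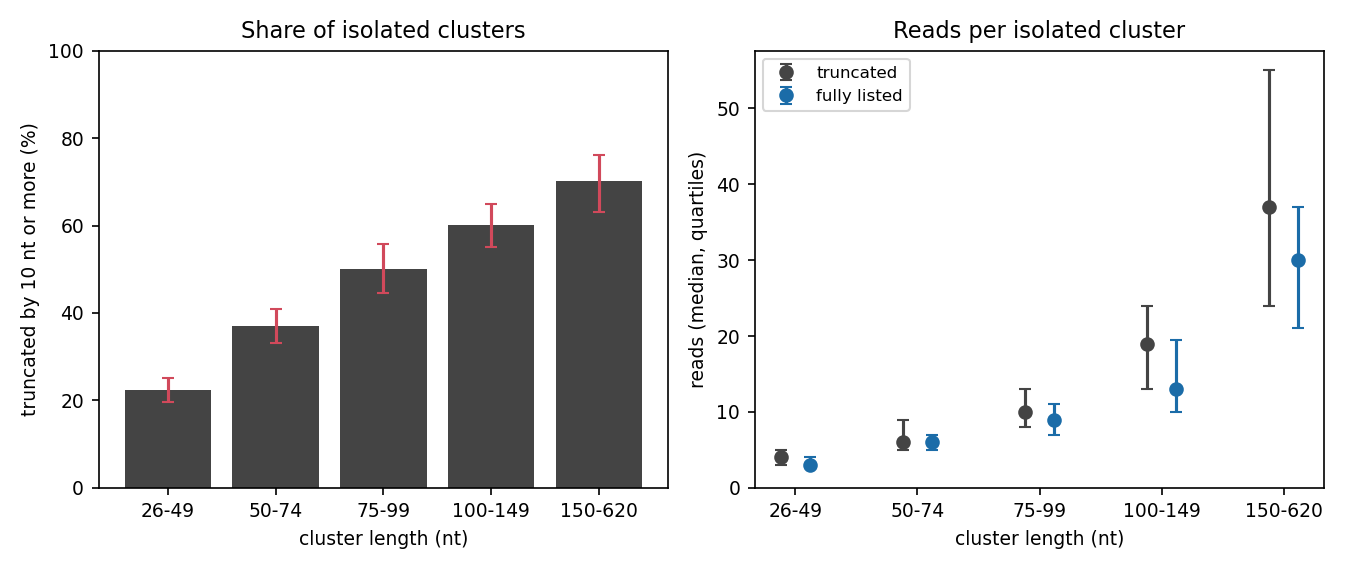
Left, the share of isolated clusters truncated by 10 nt or more in 5 classes of cluster length (nt), with 95% Wilson intervals, rising from 22.3% to 70.1%. Right, reads per cluster (median as a dot, quartiles as lines) for truncated and fully listed isolated clusters in the same classes; the medians are 19 and 13 from 100 to under 150 nt, and the quartiles overlap in each class.

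Most of these sites, 900, were listed in a single interval. The other 31 (3.33%, 2.36 to 4.69) were listed in 2 to 4 intervals, against 10.8% (9.16 to 12.6) of clusters listed in full. In 18 of the 31 the intervals shared their 3' end and differed at the 5' end, in 6 they shared the 5' end, in 6 both ends differed, and in 1 a gap lay between them. In the 18, the shorter intervals thus lacked bases at the 5' end of the longest. This does not show at which end the longest itself was short, so it does not settle the placement used above. On the plus strand at chrX:153626666-153626860, 4 intervals of 23 to 148 nt together covered 195 of the 225 nt. In 2 sites the intervals together left under 10 nt of the cluster unlisted, 1 of them at chr10:14920852-14920922, where 71 of 72 nt were covered. Those 2 counted as truncated only because their listing was split.

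Some sites were listed at more than 1 place with the same reads. Of the 618 sites with a profile of at least 100000 possible arrangements of its read starts, 20 (3.24%, 2.10 to 4.95) had the profile of another locus, against 1 of 404 among isolated clusters listed in full and 35 of 1751 (2.00%, 1.44 to 2.77) over all primary clusters. Loci were counted over the whole list, with alternate versions of chromosomes included. Among the 20 were sites of chromosome 6 with 5 loci each, and copies with 19 reads on chromosomes X and Y. Some of the 20 may thus be 1 locus listed under several versions or chromosomes. In 7 sets at least 2 copies were themselves among the sites, 14 sites in all, and in each set the copies had the same shortfall. The copies at chr5:69345505-69345512 and chr5:70220923-70220930, both on the plus strand with 20 reads, were each short by 87 nt. The copies at chr15:43886243-43886382 and chr15:43986075-43986214, plus strand, with 20 reads, were each short by 27 nt. The copies at chr22:24309075-24309102 on the plus strand and chr22:24316604-24316631 on the minus strand, with 10 reads, were each short by 65 nt and had mirrored profiles. The list does not say which copy the reads came from, so such copies are not independent sites.

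Sites on the opposite strand within 1000 nt were found beside 38 of the 931 sites (4.08%, 2.99 to 5.55) and beside 52 of the 1225 fully listed ones (4.24%, 3.25 to 5.52). The shares were close. The 38 sites formed 29 pairs, each with the minus-strand member at the lower coordinates. The gap between listed intervals had a median of 304 nt and ran from 110 to 943 nt. In 9 pairs both members were isolated and truncated. Of these, 4 lay on chromosome 6 between 26 and 28 Mb, among them chr6:27100530-27100575 (minus strand, 102 reads) beside chr6:27100817-27100850 (plus strand, 55 reads) at a gap of 241 nt. The others included chr1:111991792-111991828 on the minus strand with 9 reads beside chr1:111992075-111992163 on the plus strand with 32, at a gap of 246 nt. A pair on chromosome 10 had 23 reads at chr10:102747201-102747254 (minus strand) and 6 at chr10:102747919-102747967 (plus strand). In the other 20 pairs the partner was outside the set. The widest gap, 943 nt, lay beside the minus-strand site chr7:26240198-26240413, with 83 reads against 13. The narrowest, 110 nt, lay beside chr2:175260351-175260363, also on the minus strand, with 3 reads on each side.

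The sites were spread over both strands and all primary chromosomes with clusters. The plus strand held 473 and the minus strand 458. Chromosome 1 had the most, 116 of its 447 clusters. Among chromosomes with over 100 clusters the share ran from 18.7% on chromosome 4 to 37.0% on chromosome 9. No difference between chromosomes was tested.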

How the data were processed

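The 2 eIF3a PAR-iCLIP samples are represented by 1 list of intervals. Reads were aligned to hg19 with Bowtie, per the submitters' processing notes. The caller, any filter, duplicate removal and pooling were not given in the sources used here. What the authors deposited is a signal per interval (the highest coverage in whole reads without normalization) and the coverage profile it comes from. Units were read from the values; library depth is unknown.

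Of 4013 rows, those with the same chromosome, strand and profile were joined, where they fitted its length, into 3604 clusters. All 3113 distinct profiles could be split without remainder into 25-nt reads, whose starts were used; the splitting was tested on simulated data. Coordinates count from 1, with the file read as 0-based. Shares carry 95% Wilson intervals, which cover counting error only. No tests were made: sites of 1 list are not replicates, and the rule used the profiles.

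Sites were chosen, and tables planned, with earlier results of these data known. Named sites were the 10 highest scores, the 10 with most reads, the 5 largest shortfalls, 5 on each side of 10 nt, and examples among opposite-strand pairs; sites named for 1 nt listed, several intervals or shared profiles were picked once their values were known. The read-start analysis was also added after seeing the data. Planned results on sequence, annotation and gene lists were not run, since no hg19 reference was used here. The tools were numpy 2.4.6 under Python 3.11.15, pandas 2.3.3, scipy 1.17.1 and matplotlib 3.10.9.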

Additional observations from a re-analysis of the deposited data

How the results depend on the processing

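The number of sites was 931; it was 609 with scores at or above the median and 325 with a shortfall of at least 50 nt, both stricter by construction, and lay between 730 and 1136 in the other 9 alternatives. With those 2 filters the median reads were 15 and 17, the median score 8 and 8, and the median cluster length 108 and 122 nt. A shortfall of at least 20 nt gave medians of 11 reads and 91 nt, and leaving out profiles at more than 1 locus gave 87 nt. Fully listed sites had a median of 9 reads with scores at or above the median and 6 without profiles at more than 1 locus. An opposite-strand site within 10000 nt was found for 7.30%. The summit lay inside the listed part in 67.4%, 65.2%, 49.3% and 36.9% of sites at shortfalls of at least 2, 5, 20 and 50 nt. It did so in 50.8% by its middle and 51.7% by the mean centre of reads. The share with a read start at the listed 3' end was 37.0% without the last read of each cluster, 11.8% with the 3' placement and 25.3% for minus-strand profiles read the other way; the ratio to the neighbouring positions was 0.957 and 1.41 in the last 2, and 4.00 in the rows of known placement. The other 14 values of that share and 15 of that ratio stayed within the 95% interval of the main value, 3 of each because shortfalls under 25 nt cannot hold such a start. The alternatives for the read starts, except those shared with the number of sites, were chosen after seeing the data.

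Planned settings for sequence, annotation, gene lists and single replicates could not be computed. No paired analysis was possible because only 1 eIF3a list was given, without replicate labels. The median site held 10 reads, which limits what can be said of any single one.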
